A study of Mus musculus with 18 samples.

Results

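The 4 Id genes (Id1, Id2, Id3 and Id4) and the 3 genes of their E protein partners (Tcf3, Tcf4 and Tcf12) were examined at birth in the outermost layer of the cerebellum, the external granule cell layer. Every probe that the annotation of the array assigns to these 7 symbols was taken, which gave 15 of the 46632 probes, 7 for the Id genes and 8 for the E protein genes. By Entrez identifier, Tcf3 is the gene of E2A and Tcf4 the gene of E2-2. They are not the HMG-box factors that bore the same names in older annotations. The layer was dissected at P0 from 9 Ts1Cje and 9 euploid mice, all with the strain label B6EiC3SnF1/J A/a, and each mouse was measured on 1 Illumina bead array. Ts1Cje mice carry an additional copy of a segment of Mmu16, from Sod1 to Znf295, which is translocated to Mmu12, and they were bred from Ts1Cje males and wild-type females on a mixed background. The mice belonged to 3 litters with 3 Ts1Cje and 3 euploid mice apiece. Since a litter filled the 6 arrays of 1 slide, the effects of litter and of slide cannot be told apart. None of the 7 genes lies on Mmu16. Id1 is on Mmu2, Id2 on Mmu12, Id3 on Mmu4, Id4 on Mmu13, Tcf3 on Mmu10, Tcf4 on Mmu18 and Tcf12 on Mmu9. Id2 is not among the genes that the authors list in the deleted segment of Mmu12.

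E proteins are basic helix-loop-helix transcription factors that are made in most tissues. They bind DNA as dimers, often with a lineage factor such as Atoh1, which granule cell precursors need. Id proteins carry the helix-loop-helix but lack the basic region, so that a dimer of an Id and an E protein does not bind DNA, and Id proteins thereby hold back differentiation. Id genes are classic targets of bone morphogenetic protein (BMP) signals, which oppose the proliferation of granule cell precursors that Sonic hedgehog drives. Id1 and Id3 are also known from endothelial cells, and Id4 from astroglia and neural progenitors.

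E proteins bind the E-box, a motif with the letters CANNTG. The stretches before the annotated starts of 4 of the genes are shown, with Id3 and Id4 as the genes whose brightest probes were called between litters in an F test, and Id2 and Tcf3 as examples of those that were not. Of the 7 genes, 5 had an entry in the table of promoters (RefSeq, build GRCm38.p6). Each run below holds the 250 bases before the start of the entry, 5′ to 3′ on the strand of the gene, with every E-box in capitals. For Tcf3 this start and the whole window lie inside the annotated gene, which reaches position 80433976, so that it is not the outermost start. The window of Id3 is chr4:136143572-136143821 (plus strand), that of Id4 is chr13:48260866-48261115 (plus strand), that of Id2 is chr12:25096093-25096342 (minus strand) and that of Tcf3 is chr10:80433636-80433885 (minus strand).
Id3: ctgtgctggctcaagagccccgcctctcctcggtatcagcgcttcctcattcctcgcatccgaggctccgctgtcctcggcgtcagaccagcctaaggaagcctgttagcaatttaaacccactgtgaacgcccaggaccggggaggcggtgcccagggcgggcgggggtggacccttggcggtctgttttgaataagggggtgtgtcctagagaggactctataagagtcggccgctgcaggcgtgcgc
Id4: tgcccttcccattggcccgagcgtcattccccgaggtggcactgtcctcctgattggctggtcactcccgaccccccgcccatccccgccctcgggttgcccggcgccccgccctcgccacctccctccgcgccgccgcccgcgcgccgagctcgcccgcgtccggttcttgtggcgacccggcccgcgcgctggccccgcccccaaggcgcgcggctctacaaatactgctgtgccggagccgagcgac
Id2: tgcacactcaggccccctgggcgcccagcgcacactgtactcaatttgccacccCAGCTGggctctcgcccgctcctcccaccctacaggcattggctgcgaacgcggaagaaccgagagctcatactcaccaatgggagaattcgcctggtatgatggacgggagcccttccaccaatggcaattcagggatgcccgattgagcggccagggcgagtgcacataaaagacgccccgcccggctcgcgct
Tcf3: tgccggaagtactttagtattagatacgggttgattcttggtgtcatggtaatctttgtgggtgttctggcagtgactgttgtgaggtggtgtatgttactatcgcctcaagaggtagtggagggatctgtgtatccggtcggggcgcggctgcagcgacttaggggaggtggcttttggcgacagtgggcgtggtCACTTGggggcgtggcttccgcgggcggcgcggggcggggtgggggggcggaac
The window of Id2 held 1 E-box, 196 bases before the start at its first letter, and that of Tcf3 held 1, 54 bases before the start. The windows of Id3 and Id4 held 0. Tcf12, which was not called either, has 3 windows in the table, with 1, 1 and 0 E-boxes, all at least partly inside the annotated gene. Too few genes had an entry for any comparison between called and other genes. Of the 32851 windows of this length in the table, 66.2% held at least 1 E-box. The palindrome GGCGCC, of a kind that SMAD proteins bind, was found once in the windows of Id2 and Id4 and not in those of Id3 and Tcf3, against 9.59% of all windows with at least 1. The letters CCAAT, read on both strands, were found 3 times before Id2, 2 times before Id4 and not before Id3 or Tcf3, and 33.8% of all windows held them. None of the 3 letter patterns contains another. These are matches of letters only, and no binding was measured.

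The deposited values are log2 signals that the authors scaled by the mean of the arrays, so that a difference of 1 is a ratio of 2. All arrays had the same mean log2 signal, 6.69, and their standard deviations (SD) over the probes ran from 1.46 to 1.63. Precision is limited by the number of arrays. The source label of 2 euploid mice of litter 2 names cerebellum, while their tissue field names the dissected layer, and both arrays were used in the main fits. Of the markers of granule cell precursors, 9 of 14 were among the probes tested, with a mean log2 signal of 12.8 for Zic1 and 12.6 for Ccnd2, whereas Atoh1, Mycn and Gli1 were too dim to be tested. Markers of other cells were present as well, with 11 of 16 endothelial, 10 of 16 astroglial and 3 of 13 meningeal genes tested. Differences in bulk tissue do not tell fewer cells of a type from less RNA per cell.

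Each of the 7 genes had at least 1 probe bright enough to be tested. The 11658 probes with the highest mean (25%) were tested, down to a mean log2 signal of 7.07. Of the 15 Id and E protein probes, 12 were among them. The 3 others were the second probe of Id1 (mean 6.79) and probes 2 and 3 of Tcf4 (6.01 and 5.86). Probes are numbered from the brightest within a gene, and the signals of different probes are not on a common scale. The mean log2 signals over the 18 mice were 9.82 ± 0.24 for Id1 (SD, n = 18), 9.54 ± 0.18 for Id2 probe 1, 9.36 ± 0.27 for Id3, 8.0 ± 0.26 for Id4 probe 1, 10.04 ± 0.20 for Tcf3 probe 1, 12.53 ± 0.16 for Tcf4 probe 1 and 8.88 ± 0.31 for Tcf12 probe 1. Tcf12 therefore varied most between mice on this scale and Tcf4 least, among these brightest probes. Of all 12 tested probes, Tcf12 probe 2 had the widest spread (8.35 ± 0.41).

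**Figure D1:**
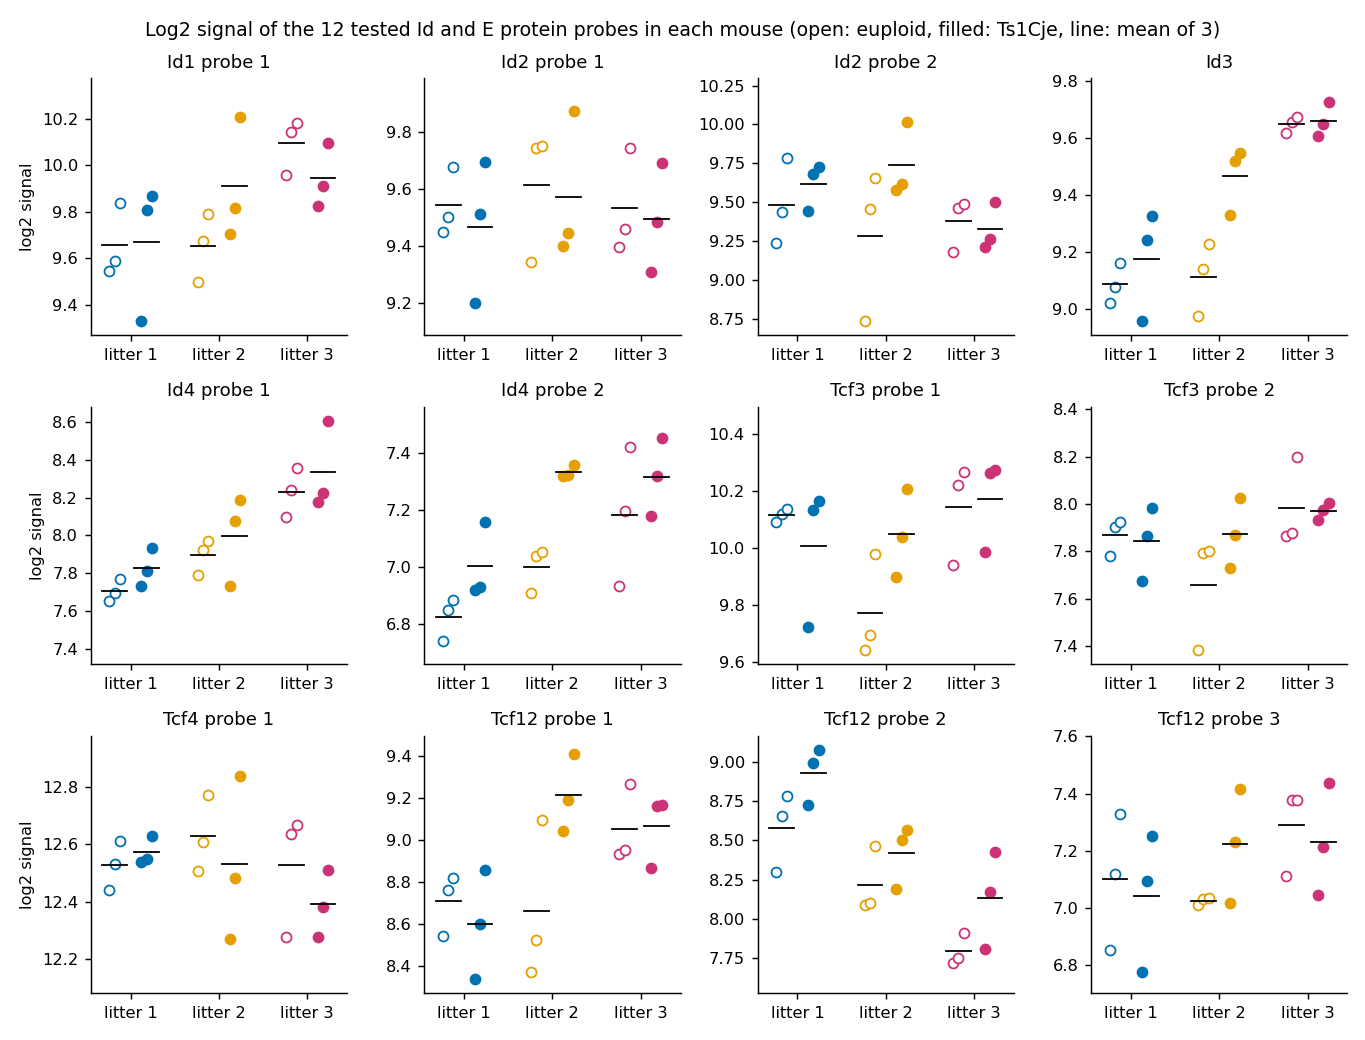
Log2 signal (y axis, scaled separately for each probe) of the 12 tested Id and E protein probes in each of the 18 mice, by litter (x axis). Open circles are euploid mice, filled circles are Ts1Cje mice and lines are means of 3 mice. All 6 mice of litter 3 lay between 9.61 and 9.73 for Id3, above the other 12 mice.

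No Id or E protein gene was called different between Ts1Cje and euploid mice. Of the 12 tested probes, 10 had somewhat higher means in Ts1Cje, by ratios (Ts1Cje/euploid) between 1.02 and 1.23, against 57.1% of all probes with a difference above 0. For each of the 12 the genotypes overlapped, as they did for all but 0.146% of the probes tested. With limma and Benjamini-Hochberg adjustment over the probes tested, 0 of the 12 probes had an adjusted p under 0.05 (0.997 for each), against 38 of the 11658 probes tested (0.326%). With litter as a block, which removes the differences between litters, 68 probes (0.583%) and again 0 of the 12 passed. Before adjustment, 1 of the 12 probes had a p under 0.05 without the block (4.01% of all probes) and 3 had with it (7.2% of all probes). The methods' t-test, on signals before log2, called 0 of the 7 genes as well.

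Id4, which in neural progenitors delays the onset of differentiation, had the lowest unadjusted p with its second probe. The log2 signals of Id4 probe 2 were 6.92 to 7.45 in the 9 Ts1Cje mice, with a median of 7.32, and 6.74 to 7.42 in the 9 euploid mice, with a median of 6.93. Within litters 1 and 2 all Ts1Cje mice exceeded all euploid mice, whereas in litter 3 the genotypes overlapped. Such a separation was seen in litter 1 for 7.14% and in litter 2 for 9.04% of all probes tested. The log2 fold change was 0.21 (standard error, SE, 0.091), a ratio of 1.16 with a 95% interval from 1.02 to 1.32, at an unadjusted p of 0.0281 from limma and 0.0356 from the exact permutation test over the 48620 splits of the mice (two-sided). With the block its unadjusted p was 0.00416 and its adjusted p 0.261. Id4 probe 1 ranged from 7.73 to 8.60 in Ts1Cje and from 7.65 to 8.36 in euploid mice, with a log2 fold change of 0.11 (SE 0.12) and a 95% interval of the ratio from 0.911 to 1.28.

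Id3, a target of BMP signals in many cell types, lay between 8.96 and 9.73 in Ts1Cje mice, with a median of 9.52, and between 8.97 and 9.67 in euploid mice, with a median of 9.16. Its log2 fold change was 0.15 (SE 0.12), a ratio of 1.11 with a 95% interval from 0.938 to 1.31. The difference came mostly from litter 2, where the Ts1Cje mice were at 9.52, 9.55 and 9.33 and the euploid mice at 9.23, 8.97 and 9.14. In that litter the mean difference was 0.35, against 0.09 in litter 1 and 0.01 in litter 3. Without the 2 mice labelled cerebellum, both of them euploid mice of litter 2, the log2 fold change was 0.09, and without litter 2 it was 0.05. With the block the unadjusted p of Id3 was 0.0337 and its adjusted p 0.623.

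Tcf12 encodes HEB, an E protein of neural and lymphoid precursors. Its second probe had the largest difference among the 12, with log2 signals of 7.81 to 9.08 in Ts1Cje (median 8.50) and 7.72 to 8.78 in euploid mice (median 8.10). The log2 fold change was 0.30 (SE 0.17), a ratio of 1.23 with a 95% interval from 0.965 to 1.57, and the means differed in the same direction in each litter (0.35, 0.20 and 0.34). With the block the unadjusted p was 0.00415 and the adjusted p 0.261. The probes 1 and 3 of the same gene had log2 fold changes of 0.15 (SE 0.14) and 0.03 (SE 0.091). For Tcf12 probe 1 the difference was -0.11 in litter 1, 0.55 in litter 2 and 0.02 in litter 3.

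Id1 and Id2, the Id genes most studied in proliferating cells, had log2 fold changes close to 0 with their brightest probes. The log2 signals of Id1 ranged from 9.33 to 10.21 in Ts1Cje and from 9.5 to 10.18 in euploid mice, with a log2 fold change of 0.04 (SE 0.11) and a 95% interval of the ratio from 0.875 to 1.21. Its sign turned to -0.07 without litter 2. Id2 probe 1 ranged from 9.20 to 9.87 in Ts1Cje and from 9.35 to 9.75 in euploid mice, with a log2 fold change of -0.05 (SE 0.088) and a 95% interval from 0.85 to 1.09. For Id2 probe 2 the log2 fold change was 0.18 (SE 0.12), and 1 euploid mouse of litter 2, one of those labelled cerebellum, was the lowest of all at 8.73.

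Tcf3 and Tcf4, which encode the other E proteins, showed no larger differences. Tcf3 probe 1 ranged from 9.72 to 10.27 in Ts1Cje and from 9.64 to 10.27 in euploid mice, with a log2 fold change of 0.07 (SE 0.093). Tcf3 probe 2 had a log2 fold change of 0.06 (SE 0.082). Tcf4 probe 1 ranged from 12.27 to 12.84 in Ts1Cje and from 12.27 to 12.77 in euploid mice, with a log2 fold change of -0.06 (SE 0.078) and the narrowest 95% interval of the ratio among the brightest probes, from 0.854 to 1.07. Over the 12 tested probes the median log2 fold change was 0.09, against 0.02 over all probes tested, and 10 of 12 were above 0, against 57.1% of all probes. Several of these probes belong to the same gene. By the brightest probes, 5 of the 7 genes were above 0, with a median of 0.07. In each of the 3 litters separately, 4 of the 12 probes were higher in Ts1Cje, against 16.2% of all probes.

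**Figure D2:**
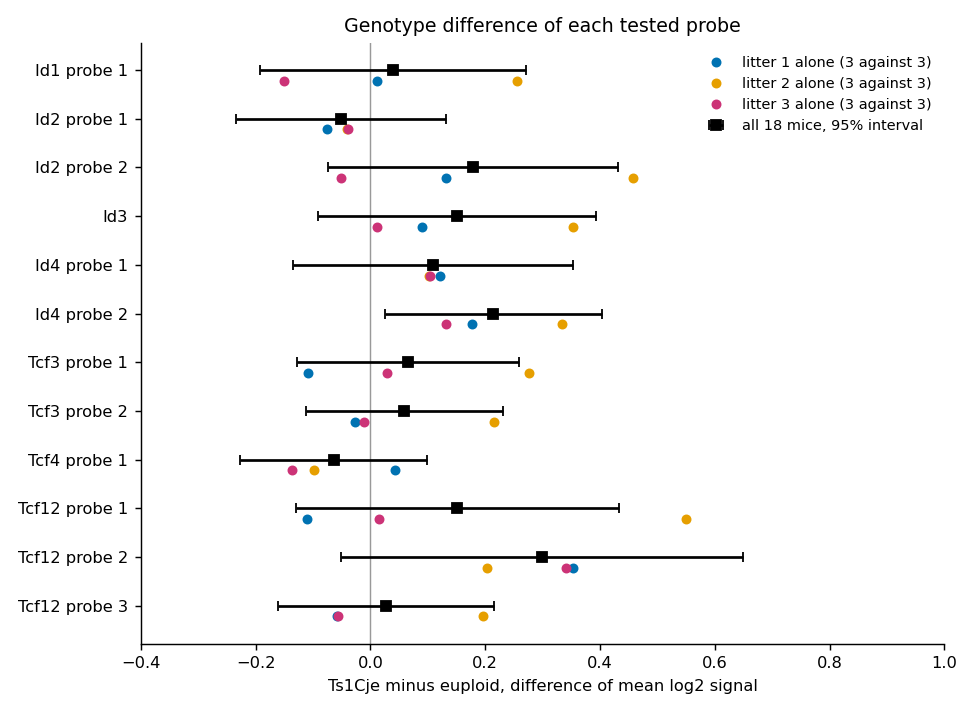
Difference of mean log2 signal between Ts1Cje and euploid mice (x axis) for each tested probe. Black squares are the 18 mice with the 95% interval from limma, and coloured circles are the differences within single litters. The interval lay above 0 for Id4 probe 2 only, from 0.03 to 0.40, and the difference of Tcf12 probe 1 was 0.55 in litter 2. The mean of Id4 probe 2 was close to the dimmest mean tested.

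The genotype difference was not shown to depend on the litter. The interaction of genotype and litter had an adjusted p under 0.05 for 0 of the 12 probes (limma F test), against 6 of all probes tested (0.0515%). Before adjustment, 1 of the 12 had a p under 0.05, Tcf12 probe 1 (adjusted p = 0.62 from limma), against 7.93% of all probes. For Id3 the adjusted p of the interaction was 0.644 and for Id4 probe 1 it was 0.999. In litter 2 most of the tested probes had a larger difference than in the other litters. These were Id1, Id2 probe 2, Id3, Id4 probe 2, both probes of Tcf3, and probes 1 and 3 of Tcf12. The differences of Id2 probe 1, Id4 probe 1, Tcf4 probe 1 and Tcf12 probe 2 were not largest there. The share of all probes tested with their largest difference in litter 2 was not computed, so that this is not shown to be particular to these genes. Over all probes tested, every Ts1Cje mouse exceeded every euploid mouse for 9.04% in litter 2 and for 7.14% in litter 1. Litter 2 holds the 2 arrays labelled cerebellum and the 2 arrays with the smallest SD of log2 signals (1.46 and 1.48), all euploid and 1 of them in both groups. The part of these arrays in the litter 2 values was not tested beyond leaving them out.

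Litters differed more than genotypes for several of these genes. Id3 and Id4 were higher in litter 3, and the probes of Tcf12 went in opposite directions. In a limma F test of litter with genotype in the fit, 4 of the 12 probes (Id3, both probes of Id4 and Tcf12 probe 2) and 2 of the 7 genes by their brightest probes (Id3 and Id4) had an adjusted p under 0.05. Of all probes tested, 28.3% passed, so that the share of these genes was close to that of the array as a whole. Between litters 3 and 1, 5 of the 12 probes were higher in litter 3 (15.3% of all probes) and 1 was lower (12.1%). Between litters 3 and 2, 2 were higher (11.8%) and 1 was lower (2.63%), and between litters 2 and 1, 0 were higher (1.19%) and 1 was lower (4.16%). Since each litter holds 3 mice of each genotype, the litter differences are balanced for genotype.

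Id3 separated litter 3 from the other mice. Its log2 signals were 8.96 to 9.33 in litter 1 (median 9.12), 8.97 to 9.55 in litter 2 (median 9.28) and 9.61 to 9.73 in litter 3 (median 9.65). Litters 1 and 2 overlapped, and all 6 mice of litter 3 lay above both, as was the case for 1.72% of all probes tested. The SD within litter 3 was 0.043, against 0.14 in litter 1 and 0.22 in litter 2. Litter 3 exceeded litter 1 by 0.52 (SE 0.081), a ratio of 1.44 with an adjusted p of 0.000175 from limma, and litter 2 by 0.37, with an adjusted p of 0.00848. Without the 2 arrays labelled cerebellum, the difference between litters 3 and 2 was 0.27 and did not pass (adjusted p = 0.0607 from limma). The difference of 0.16 between litters 2 and 1 did not pass (adjusted p = 0.27 from limma).

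Id4 showed the same order of litter means with both probes. Id4 probe 1 was at 7.65 to 7.94 in litter 1, 7.73 to 8.19 in litter 2 and 8.10 to 8.60 in litter 3. Litters 1 and 3 did not overlap (12.6% of all probes), whereas litter 2 overlapped with both. Litter 3 exceeded litter 1 by 0.52 (SE 0.086), a ratio of 1.43 with an adjusted p of 0.000322 from limma, and litter 2 by 0.33, with an adjusted p of 0.0167. The latter call was lost without the 2 arrays labelled cerebellum (adjusted p = 0.0617 from limma) and without the 2 arrays of smallest spread (0.0638). For Id4 probe 2 the difference between litters 3 and 1 was 0.34 (SE 0.081, adjusted p = 0.00492 from limma), and litters 3 and 2 differed by 0.08 (adjusted p = 0.501), less than the SD within either litter (0.19 in both). The litter 1 mean of this probe, 6.91, lay under the dimmest mean tested (7.07).

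Id1 had litter means of 9.66 ± 0.21, 9.78 ± 0.24 and 10.02 ± 0.14 (SD, n = 6 each) in litters 1, 2 and 3. The difference between litters 3 and 1 was 0.36 (SE 0.11, adjusted p = 0.0241 from limma), but all litters overlapped, and the F test of the 3 litters did not pass (adjusted p = 0.0529). Id2 had means of 9.51, 9.59 and 9.51 with its first probe, and its differences between litters were smaller than its SD within litters, which were 0.17 to 0.22. Neither probe of Id2 passed in any comparison of litters. The same held for both probes of Tcf3 and for Tcf4 probe 1, with adjusted p of 0.15, 0.183 and 0.516 in the F test. Litter accounted for 71.1% of the variance between mice for Id3, 70% for Id4 probe 1, 39.4% for Id1 and 4.9% for Id2 probe 1, against a median of 27.5% over all probes tested.

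**Figure D3:**
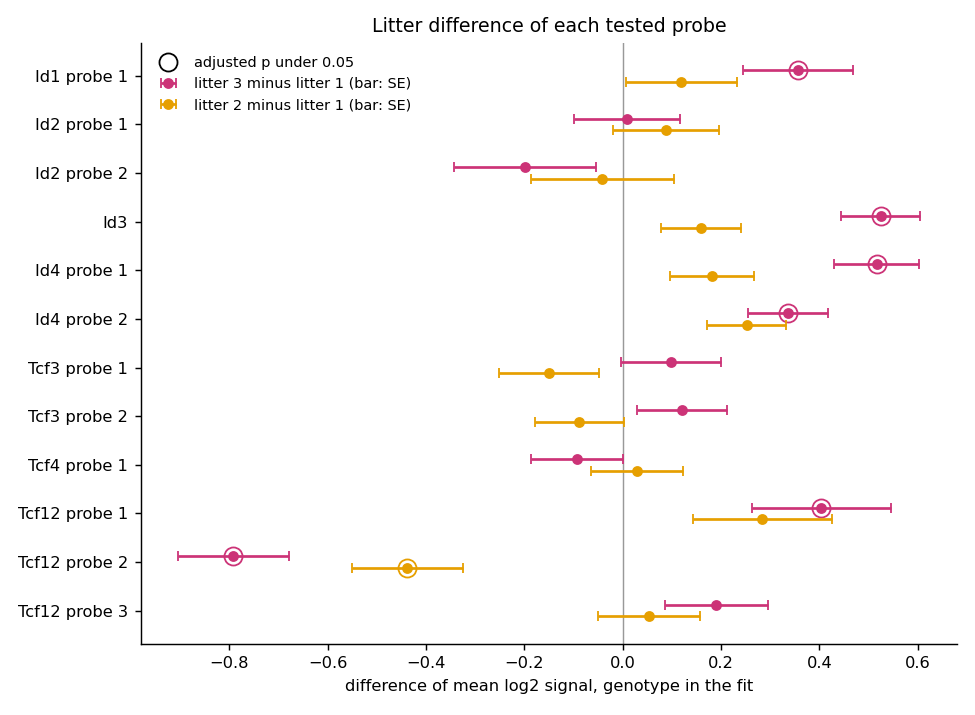
Difference of mean log2 signal of litters 3 and 2 from litter 1 (x axis) for each tested probe, from limma with genotype in the fit. Bars are SE and rings mark an adjusted p under 0.05. Id3 and Id4 probe 1 stand at 0.52 for litter 3, and Tcf12 probe 2 at -0.79.

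The probes of Tcf12 disagreed on the litters. Tcf12 probe 1 rose from a mean of 8.65 in litter 1 to 9.06 in litter 3, a difference of 0.40 (SE 0.14, adjusted p = 0.04 from limma). The F test of the 3 litters did not pass for this probe (adjusted p = 0.0817 from limma). Litters 1 and 3 only just failed to overlap (highest 8.856 in litter 1, lowest 8.865 in litter 3), and 12.6% of all probes tested did not overlap between them. Tcf12 probe 2 fell from 8.76 in litter 1 to 8.32 in litter 2 and 7.96 in litter 3. The difference between litters 3 and 1 was -0.79 (SE 0.11), a ratio of 0.578 with an adjusted p of 8.38e-05 from limma. It was the only probe of the 12 that differed between litters 2 and 1 (-0.44, adjusted p = 0.0286), which did not pass without the 2 arrays of smallest spread (adjusted p = 0.0851) or without genotype in the fit (0.0677). Its difference of -0.35 between litters 3 and 2 (adjusted p = 0.0414 from limma) was lost under 5 of the alternatives, with adjusted p between 0.0703 and 0.164. Tcf12 probe 3 had a difference of 0.19 (SE 0.10) between litters 3 and 1, which did not pass (adjusted p = 0.179). By the record that the annotation names for each probe, probes 1 and 3 were designed on the RefSeq transcript and probe 2 on a cDNA clone, and the positions of the probes in the gene were not used here.

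Markers of some other cell types moved between litters together with Id3 and Id4. Of the 10 tested astroglial genes, 7 were higher in litter 3 than in litter 1, against 15.9% of all named genes, and the linear signals of the 15 genes of this list with a probe summed to 27796 to 30227 in litter 1 and 33418 to 38335 in litter 3, with no overlap. Fabp7, Gfap, Glul, S100b and Ptprz1 were not bright enough to be tested. Of the 11 tested endothelial genes, 10 were higher in litter 3, with sums over the 16 genes of the list of 4677 to 7051 in litter 1 and 6041 to 11130 in litter 3, while Kdr, Tie1, Slco1a4, Abcb1a and Ctla2a were not tested. Higher in litter 3 were also 2 of 3 meningeal genes, 2 of 7 of the oligodendrocyte lineage, 1 of 3 of pericytes, 1 of 1 of microglia and 1 of 2 of choroid plexus. The last was Ttr, the transthyretin gene, by a ratio of 8.57 (adjusted p = 0.00427 from limma), with a wide spread in litter 3 (9.82 ± 2.41, SD, n = 6). Of the genes of granule cell precursors, 2 of 9 were higher and 2 lower, and of those of postmitotic granule cells 0 of 6 were higher and 2 lower, namely Dcx and Stmn2. Of the tested Purkinje cell genes, 0 of 8 were higher and 1 was lower. Of those of GABAergic interneurons 1 of 5 was higher, and of those of erythroid cells 0 of 1. Some of the markers were dim. The litter 1 means of the microglial Cx3cr1 (6.82) and the meningeal Ptgds (6.68), among others, lay under the dimmest mean tested (7.07). The part of other cells in the litter differences of Id3 and Id4 was not tested.

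Across the 18 mice, Id3 followed the mean log2 signal of the tested markers of astroglia (Pearson's r = 0.85 and Spearman's rho = 0.81, adjusted p = 0.00126 and 0.00409 by permutation) and of endothelial cells (r = 0.73 and rho = 0.74, adjusted p = 0.00567 and 0.0103). It also passed with the oligodendrocyte lineage (r = 0.80), meninges (r = 0.60), pericytes (r = 0.59) and granule cell precursors (r = 0.57), so that its relation was not limited to a cell type. For Id4 the values were r = 0.81 and rho = 0.78 with astroglia (adjusted p = 0.00231 and 0.00651 by permutation) and r = 0.77 and rho = 0.79 with endothelial cells (adjusted p = 0.00231 and 0.00409). Id4 also passed with meninges (r = 0.68), the oligodendrocyte lineage (r = 0.68) and pericytes (r = 0.65). In all, 63 relations were computed between the 7 genes and 9 lists of markers, and 19 had an adjusted p of r under 0.05. After the mean of each litter was subtracted, 0 of the 63 did. For Id3 and astroglia r was then 0.49, and within litters 1, 2 and 3 it was 0.71, 0.54 and -0.11. Tcf3 followed the markers of granule cell precursors (r = 0.71 and rho = 0.69, adjusted p = 0.00891 and 0.0155 by permutation), with r = 0.60 after subtraction. It also followed those of Purkinje cells (r = 0.63 and rho = 0.71, adjusted p = 0.0243 and 0.0153), with r = 0.58 after subtraction. Tcf12, by its probe 1, passed with astroglia (r = 0.72), the oligodendrocyte lineage (0.71), granule cell precursors (0.64) and pericytes (0.62). The same probe had r = 0.66 with the SD of log2 signals of the array and -0.31 with Tcf12 probe 2. Id1 passed with the oligodendrocyte lineage (0.59) and astroglia (0.58). Without the 2 mice farthest from the median of the marker mean, r was 0.86 for Id3 with astroglia, 0.72 for Id3 with endothelial cells, 0.78 for Id4 with astroglia, 0.72 for Id4 with endothelial cells and 0.69 for Tcf3 with granule cell precursors. For Tcf12 it was 0.70 with astroglia, 0.69 with the oligodendrocyte lineage, 0.45 with granule cell precursors and 0.56 with pericytes.

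Between mice, Id1 and Id3 varied together, and no pair with Id2 or Tcf4 passed. Of the 21 pairs of the 7 genes, taken by their brightest probes, 3 had a Pearson's r with an adjusted p under 0.05 in a permutation test over the 18 mice (100000 resamples, two-sided, Benjamini-Hochberg over the pairs). These were Id1 with Id3, Id3 with Id4 and Id3 with Tcf12. After the litter means were subtracted, 0 of the 21 pairs passed. Both Id1 and Id3 are genes that BMP signals induce.

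For Id1 and Id3, r was 0.81 and rho 0.83 (adjusted p = 0.00147 for each by permutation). It was 0.80 without the 2 mice farthest from the median of Id1, and 0.68 after the litter means were subtracted (adjusted p = 0.0689 by permutation). Within litters 1, 2 and 3, of 6 mice each, r was 0.75, 0.75 and 0.19. Id3 and Id4 had r = 0.74 and rho = 0.75 (adjusted p = 0.00546 and 0.00451 by permutation), and r = 0.70 without the 2 farthest mice. Their relation did not hold within litters, with r = 0.11 after subtraction and 0.49, 0.12 and -0.42 in the 3 litters. Id3 and Tcf12 had r = 0.62 and rho = 0.59 (adjusted p = 0.045 and 0.0455 by permutation), and 0.69, 0.46 and -0.51 within litters. This pair did not pass without the 2 farthest mice (r = 0.61, adjusted p = 0.069 by permutation), with quantile normalization (r = 0.52, adjusted p = 0.102), after genotype means were subtracted (adjusted p = 0.0801) or without the 2 arrays of smallest spread (adjusted p = 0.0999).

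Id3 and Tcf3 had r = 0.58 and rho = 0.63 (adjusted p = 0.0565 and 0.0414 by permutation). For this pair r was 0.70 after the litter means were subtracted (adjusted p = 0.0689 by permutation), and 0.69, 0.77 and 0.77 within the 3 litters, the most even values among the pairs named here. It was 0.45 without the 2 mice farthest from the median of Id3. Id4 and Tcf12 likewise passed by rho only, with r = 0.57 and rho = 0.62 (adjusted p = 0.0565 and 0.0419 by permutation), and their r was 0.32 after subtraction. Within litters it was -0.13, 0.65 and -0.06, and 0.60 without the 2 mice farthest from the median of Id4. Id2 had r between -0.22 and 0.15 with the other 6 genes, and Tcf4 between -0.33 and 0.10.

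**Figure D4:**
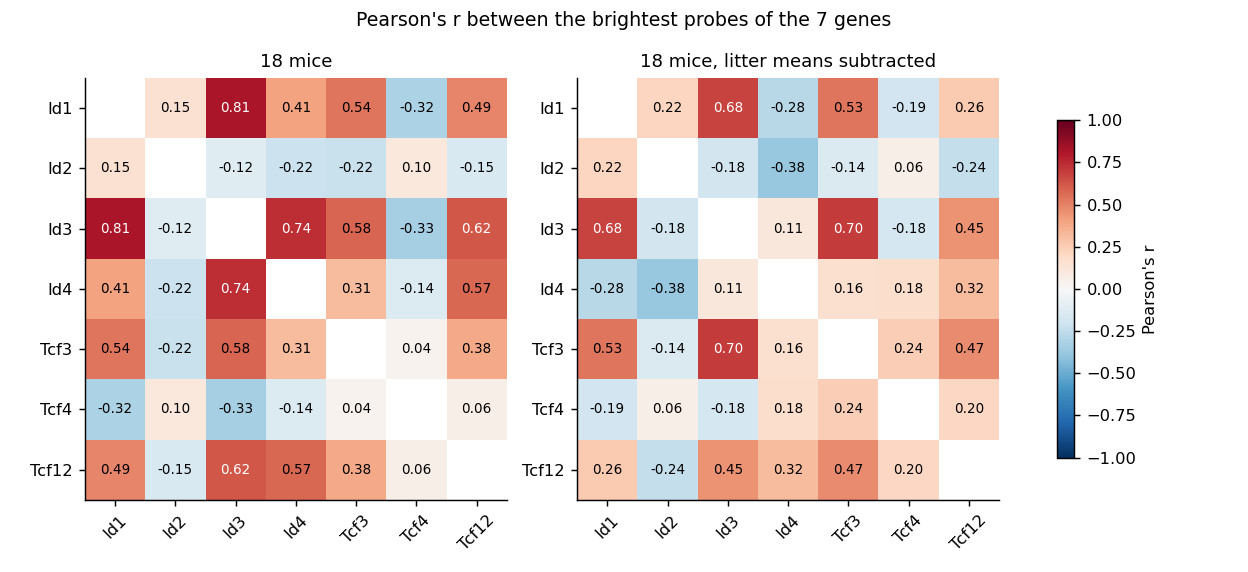
Pearson's r between the log2 signals of the brightest probes of the 7 genes over 18 mice, before (left) and after (right) the mean of each litter was subtracted. Red is positive and blue negative. Id3 and Id4 went from 0.74 to 0.11, while Id1 and Id3 went from 0.81 to 0.68.

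Probes of the same gene did not always vary together. The r between both probes was 0.67 for Id1, 0.63 for Id4 and 0.72 for Tcf3, but -0.30 for Id2. For Tcf12, probes 1 and 2 had r = -0.31, and 0.28 after the litter means were subtracted. Probes 1 and 3 of Tcf12 had r = 0.46. For Tcf4, the first probe had r = -0.31 and 0.36 with the others, which lay under the dimmest mean tested.

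Some of these genes followed the spread of the array. The SD of the log2 signals of an array, a technical measure, had r = 0.66 and rho = 0.61 with Tcf12 probe 1 (adjusted p = 0.0169 and 0.0466 by permutation, over the 12 tested probes), with 0.62, 0.89 and 0.84 within the litters and 0.51 without the 2 mice farthest from the median SD. Tcf3 probe 2 had r = 0.72 and rho = 0.72 (adjusted p = 0.0096 and 0.0132 by permutation), 0.86, 0.64 and 0.60 within litters, and 0.67 without the 2 farthest mice. For Id3 the value was r = 0.28 and for Id1 it was 0.20. Without the 2 arrays of smallest spread, the log2 fold change of Tcf12 probe 1 was 0.05 in place of 0.15.

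**Figure D5:**
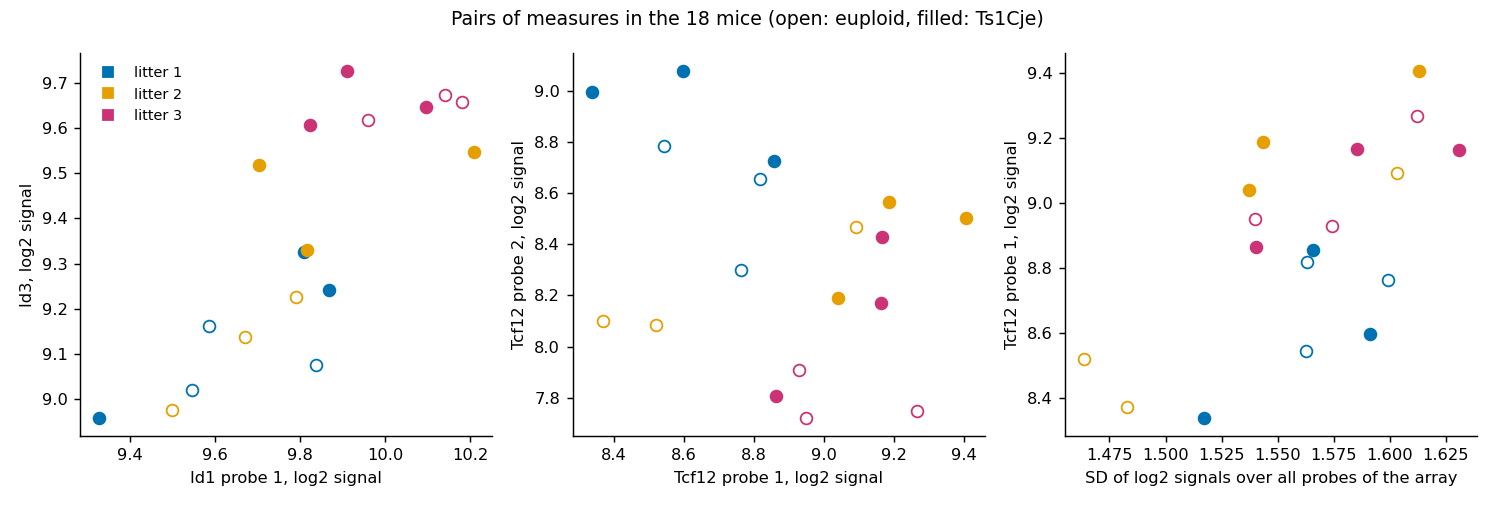
Log2 signals of Id3 against Id1 (left), of Tcf12 probe 2 against Tcf12 probe 1 (centre) and of Tcf12 probe 1 against the SD of log2 signals of the array (right) in the 18 mice. Colours are litters, open circles are euploid and filled circles are Ts1Cje mice. The values of r were 0.81, -0.31 and 0.66.

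For each gene, the other named genes with the most similar pattern over the 18 mice were listed among 7289, as a description. For Id1 they were Mpst (r = 0.84), Cdkn2c (0.82), U2af1l4 (0.82) and Id3 (0.81). Cdkn2c encodes an inhibitor of cyclin-dependent kinases, and Mpst a sulfurtransferase. Those of Id3 were Ctsc (0.91), Copz2, Apip and Fancd2 (0.90 each), and those of Id4 were St13 (0.94), Rassf3, Tmem109 and Pbk (0.88 each). For Id2 the values were lower, with Coq5 at 0.81 and Zmat4 at 0.74. Tcf3 was closest to Hmg20b (0.90), Tcf4 to 2810021J22Rik (0.87) and Tcf12 to Tsc22d1 (0.97). After the litter means were subtracted, Mpst (0.80), Coq5 (0.81), St13 (0.83) and Tsc22d1 (0.97) were still among the first 4 for Id1, Id2, Id4 and Tcf12, while those of Id3 became Vars (0.85), Rrp15, Ass1 and Shmt2.

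The genes that act before and after the Id and E proteins were described from lists. No gene of the 9 lists was called between the genotypes, where 22 of the 7290 named genes tested were higher and 3 lower in Ts1Cje (limma). With litter as a block, 1 was called, Eng, which encodes endoglin, a co-receptor for BMP ligands of endothelial cells (log2 fold change 0.40, SE 0.16, adjusted p = 0.0469 with the block and 0.997 without). Its log2 signals were 7.48 ± 0.42 in Ts1Cje and 7.08 ± 0.31 in euploid mice (SD, n = 9), and 3 of the Ts1Cje mice exceeded the highest euploid mouse. With the block, 41 of the named genes were higher and 4 lower. Among the markers of other cell types, the endothelial Vwf (ratio 1.44, adjusted p = 0.0204) and the astroglial Aqp4 (ratio 1.57, adjusted p = 0.00159) were called with the block and not without it. In the direction of Eng, 11 of 11 endothelial, 8 of 10 astroglial and 3 of 3 meningeal markers had a log2 fold change above 0, with medians of 0.32, 0.11 and 0.97. Of all probes tested, 57.1% were above 0. The euploid means of the endothelial Tek (6.85) and Ly6c1 (6.92) and the meningeal Ptgds (7.03) lay under the dimmest mean tested (7.07). Their Ts1Cje means (7.41, 7.30 and 7.22) lay above it. Tek, Ly6c1 and Ptgds were thus tested only through higher values in Ts1Cje, which favours a difference above 0. No endothelial, astroglial or meningeal marker had the reverse. Markers of granule cell precursors (8 of 9), oligodendrocyte lineage (6 of 7) and pericytes (3 of 3) were mostly above 0 too. Fewer were above 0 for Purkinje cells (3 of 8), postmitotic granule cells (2 of 6) and GABAergic interneurons (2 of 5). The summed endothelial markers ran from 4677 to 11130 in Ts1Cje and from 4527 to 8041 in euploid mice, those of astroglia from 27796 to 38335 and from 27678 to 36484, and those of meninges from 1990 to 11453 and from 1642 to 5496. The part of other cell types in the value of Eng was not tested. Smad1 and Smad4, which carry the BMP signal, had log2 fold changes of -0.02 each.

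Among the lineage factors that pair with E proteins, 6 of 26 were tested, and Olig1, which lies in the trisomic segment, had the largest difference, which did not pass (log2 fold change 0.46, SE 0.19, adjusted p = 0.997 from limma). Atoh1 was among those too dim. The median log2 fold change was 0.15 for the 3 tested genes of the list of BMP ligands, which holds Bmp1, a protease and not a ligand, beside Bmp7 and Gdf10. It was 0.05 for 6 receptors, 0.04 for 4 inhibitors, 0.00 for 6 lineage factors and 0.03 for 6 cofactors of E proteins, against -0.00 for all named genes.

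Between litters, 12 of the 41 tested genes of these lists (29.3%) were called by the F test, close to the share of all named genes (25.7%, 1877 of 7290). In the contrast of litters 3 and 1, 12 were higher and 1 was lower. Both tested BMP ligands, Bmp7 and Gdf10, were higher in litter 3 than in litter 1, though Gdf10 did not pass the F test (adjusted p = 0.0563 from limma). Bmp1 passed the F test (adjusted p = 0.00735) with a difference of -0.07 between litters 3 and 1. Bmp7 was at 7.05 ± 0.08 in litter 1 and 7.42 ± 0.42 in litter 3 (SD, n = 6), and Gdf10 at 12.54 ± 0.20 and 12.90 ± 0.09. The litter 1 mean of Bmp7 lay under the dimmest mean tested (7.07), so that Bmp7 was tested only through its values in litter 3. Eng rose by 0.56 (SE 0.11, adjusted p = 0.0011 from limma), and the BMP-binding Fstl1 by 0.52 (SE 0.14, adjusted p = 0.00841). Hey1, a further BMP and Notch target, was higher by 0.40 (SE 0.11, adjusted p = 0.0138). It was the only gene tested of the 11 in its list. Eng was the only 1 of 6 tested receptors called higher in litter 3 than in litter 1, and Fstl1 the only 1 of 4 inhibitors. Smad1 and Smad4 differed by 0.11 and 0.03 between these litters and did not pass (adjusted p = 0.379 and 0.776 from limma). Bmp7, Gdf10, Eng, Fstl1 and Hey1, and Id3, Id4 and Id1, were higher in litter 3 than in litter 1, as were 1156 of the named genes, whereas 603 were lower.

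Of the lineage factors, Neurog2, Tal1 and Ptf1a were higher in litter 3 than in litter 1, by 0.63, 0.87 and 0.61 on the log2 scale. The litter 1 means of Neurog2 (6.82) and Tal1 (6.76) lay under the dimmest mean tested (7.07). Both were thus tested only through higher values outside litter 1. Ptf1a did not pass the F test (adjusted p = 0.0795 from limma). Ptf1a specifies GABAergic neurons of the cerebellum, and Tal1 is known from blood and endothelial cells. Lmo4, which encodes a cofactor of such complexes, was lower in litter 3 by 0.27 (SE 0.073, adjusted p = 0.00987 from limma). Of the cell cycle genes, 3 of 6 were higher in litter 3. Cdkn2c rose by 0.52, Ccnd2 by 0.37 and Ccnd1 by 0.35. Cdc20, whose product helps to degrade Id proteins, rose by 0.40 (SE 0.11, adjusted p = 0.0109 from limma).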

How the data were processed

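Log2 signals of 18 arrays, each with the external granule cell layer of 1 mouse at P0, were analysed. The authors converted the RNA to biotinylated cRNA for bead arrays (Illumina Mouse-6), extracted mean bead signals with BeadStudio and scaled them by the mean of all arrays. They deposited the log2 of these signals. These values were tested as deposited, with no background correction, and the detection p-values were not used here. Symbols come from the annotation of the array, updated through the Entrez identifier for 29921 of 29976 probes with 1 symbol. A further 10 probes had several symbols and 16646 were unnamed here.

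The 25% of probes with the highest mean were tested with lmFit and eBayes of limma 3.58.1 (R 4.3.3). The tests were two-sided, and p-values were adjusted by Benjamini-Hochberg over these 11658 probes, with a threshold of 0.05. Genotype was fitted without litter, as in the methods, and with litter as a block. Litter was tested with genotype in the fit, and their interaction in a separate fit. A gene was represented by its brightest probe. Exact permutation tests covered 48620 splits of the mice into 9 and 9. Correlations were tested with 100000 permutations (scipy 1.17.1, Python 3.11.15), and figures drawn with matplotlib 3.10.9. The fits were tested on simulated data.

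Alternatives were quantile normalization, median scaling, background subtraction (percentile 5 of each array), other filters on dim probes, litter blocks, fits without each litter or without the arrays labelled cerebellum, the methods' t-test before log2 and averaging the probes of a gene. Leaving out the 2 arrays of smallest spread was added after seeing the data. The genes, the lists and the tests were chosen with earlier results of these data known. Named genes beside the 7 were the 4 of highest r for each and, in each list, up to 3 with the lowest p for genotype, up to 2 with the lowest p for litter and up to 2 with the highest mean. Vwf, Aqp4, Ptf1a and Ccnd1 are not given by this rule and were added with their values known. Summed markers are sums of linear signals over the genes of a list with a probe, by brightest probe, and correlations used the mean log2 signal of the tested genes. Mice of a litter share a slide and parents, and each mouse was counted as 1 replicate.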

Additional observations from a re-analysis of the deposited data

Results flagged for a closer look

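In litter 1, Ts1Cje mouse 1 had a log2 signal of 9.72 for Tcf3 probe 1, while the other 5 mice of the litter lay between 10.09 and 10.17, a gap of 0.83 of the whole range. It was the only such mouse among the 75 groups of mice examined over the probes of the 7 genes, where chance gives about 1 group in 20.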

How the results depend on the processing

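The number of Id and E protein genes called between the genotypes was 0 under every alternative run, and so was the number with an interaction. Over all probes, 38 were called between the genotypes, against 25 with the brightest 15% of probes, 68 with litter as replicate block, 19, 10 and 17 without litter 1, 2 or 3, 25 without the arrays labelled cerebellum and 21 without the 2 arrays of smallest spread. The signs of small log2 fold changes turned for Id1 (-0.0691 without litter 2, -0.0229 without the arrays labelled cerebellum), Id2 probe 1 (0.0010 without these arrays, 0.0635 as the mean over probes), Tcf3 probe 1 (-0.0398 without litter 2, -0.0324 without the arrays labelled cerebellum), Tcf3 probe 2 (-0.0188 without litter 2, -0.0106 without the arrays labelled cerebellum, -0.0118 without those of smallest spread), Tcf12 probe 1 (-0.0478 without litter 2) and Tcf12 probe 3 (-0.0194 with quantile normalization, -0.0577 without litter 2, -0.0028 without the arrays labelled cerebellum and -0.0065 without those of smallest spread). None of these had passed, and the cause was not tested.

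For litter, 3295 probes were called, against 4953 without a filter and 1874 with the brightest 15%, which follows the number of probes tested. Of the 7 genes, 2 were called, against 1 with the brightest 15%, where Id4 was not tested, and 4 without the arrays labelled cerebellum, where Id1 and Tcf12 were added. Id3 was called by the F test under every alternative run, but its difference between litters 3 and 2, and that of Id4 probe 1, did not pass without the arrays labelled cerebellum (adjusted p = 0.0607 and 0.0617 from limma). The difference between litters 3 and 1 turned for Id2 probe 1 with quantile normalization (-0.0191), and for Tcf12 probe 1 it no longer passed with median scaling (adjusted p = 0.0541 from limma) or without a filter (0.0743). Of the 21 pairs, 3 passed, against 0 after subtraction of litter means, 6 with median scaling, 2 with quantile normalization, with genotype means subtracted, without the 2 farthest mice or without the arrays of smallest spread, and 0, 0 and 0 within the litters. The r of Id3 within litter 3 was -0.42 with Id4 and -0.51 with Tcf12. The median log2 fold change of the tested probes was 0.016, against 0.021 with median scaling and -0.012 with quantile normalization. The 9 mice per genotype limit the sizes that could be seen: the 95% intervals of the ratio reached 1.57 for Tcf12 probe 2 and at most 1.35 for the other tested probes. With the replicate block, the only genes of the lists called beyond the fit without it were Eng, Vwf and Aqp4, and none of the 12 Id and E protein probes was added.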
